A study of Homo sapiens with 6 samples.

Results

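The Wnt signalling genes described here are 43 genes given by name: 8 ligands, 2 enzymes that process ligands, 8 Frizzled receptors, 4 co-receptors, 3 genes of the R-spondin arm, 3 secreted antagonists, 5 genes of Dishevelled and its Naked inhibitors, 5 of β-catenin and its destruction complex, 4 TCF/LEF transcription factors and 1 receptor gene known as a Wnt target. All 43 were found by symbol among the 62696 genes listed in each count table, and 39 had enough counts to be tested. RNA was measured by strand-specific sequencing of rRNA-depleted total RNA in 12Z, an immortalised cell line labelled as endometriosis epithelial cells, at p40 (as the labels write it) in every library. One group of 3 libraries came from cells given a control siRNA and the other group of 3 from cells given 1 siRNA that targets the long non-coding RNA LINC01638. Both groups were transfected with the same lipid reagent and harvested after 72 h. The line is 1 cell line and each group received 1 siRNA, so an effect of the LINC01638 siRNA on other RNAs cannot be told apart from an effect of losing LINC01638. Nothing in the labels says that replicates A, B and C were separate cultures, so p-values reflect only how far these libraries differ from each other, which may be technical.

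Wnt proteins are secreted lipid-modified ligands that bind Frizzled receptors together with LRP5 or LRP6, which stops a destruction complex of APC, axin and GSK3 from marking β-catenin for degradation. Stabilised β-catenin then acts with TCF/LEF proteins on target genes, several of which (AXIN2, NKD1, RNF43, NOTUM, LGR5) feed back on the pathway. Other ligands, WNT5A among them, signal through ROR1 or ROR2 without β-catenin, and in the endometrium Wnt genes take part in the exchange between epithelium and stroma and in the response to ovarian steroids.

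Each library held between 45617234 and 58148664 counts in genes. LINC01638 (ENSG00000233521.8) stood at 7.64, 7.65 and 7.81 CPM (counts relative to library size, scaled between libraries by the trimmed mean of M-values) in the control libraries A, B and C and at 2.29, 1.98 and 2.05 CPM in the siRNA replicates, so the libraries carry the difference their labels state. Reads outside annotated exons of their own strand made up 8.32% to 10.1% of mapped reads in control libraries. In LINC01638 siRNA libraries they made up 12.1% to 15.1%. These include reads that lie over exons of the other strand only. Of 6 epithelial markers all were tested: EPCAM was low (0.377 ± 0.0682 CPM in control libraries, SD, n = 3) and keratin 8 (KRT8) abundant (2604 ± 106 CPM). Summed stromal marker levels ran from 6704 to 8154 CPM in control and from 5326 to 5761 CPM in LINC01638 siRNA libraries. Epithelial sums ran from 5171 to 5618 and from 3179 to 3708 CPM, and mesothelial sums from 611 to 703 and from 359 to 410 CPM. With LINC01638 siRNA 6 of 7 stromal, 5 of 6 epithelial and 5 of 5 mesothelial markers fell (29.6% of all genes tested were called lower). Among the epithelial markers KRT19 fell 2.62-fold and CDH1 2.27-fold. EPCAM (3.64-fold) and the stromal marker PDGFRA (1.43-fold) rose. Of 5 immune markers CD3E had no count in any library and CD14 fell from 48.9 to 34.6 CPM. PTPRC (0.319 and 0.239 CPM) did not pass, and CD68 and LYZ were too low to test. Of 5 endothelial markers PECAM1 and CLDN5 averaged under 0.1 CPM in control libraries, KDR fell from 12.3 to 7.995 CPM, and CDH5 and VWF rose from 1.05 to 1.78 and from 0.805 to 1.46 CPM. Single libraries decided the calls of VWF (edgeR adjusted p = 0.0554 without siRNA replicate C), KRT7 (0.108 and 0.0683 without control replicate A or B) and PDGFRB (0.0945 and 0.0845 without control replicate B or C), whose log2 fold change went from -0.25 to -0.17 without siRNA replicate B. The part of these marker differences and of the reads outside exons of their own strand in the results below was not tested. In bulk RNA fewer cells of a type and less RNA per cell cannot be told apart.

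Most of the tested Wnt genes fell or rose modestly with LINC01638 siRNA, and more fell than rose. Of the 39 tested, 21 fell, 8 rose and 10 did not pass an edgeR adjusted p of 0.05 (quasi-likelihood F test, Benjamini-Hochberg adjustment over 18569 genes). The 8 include NKD1, which had enough counts to be tested only through its siRNA libraries. Over all genes tested 29.6% were called lower, 26.3% higher and 56.0% in either direction. The counts by role below stand beside these shares, and no role was tested as a set. The share in either direction was 64.9% for protein-coding genes and 66.0% for genes averaging 1 CPM or more, the range in which most of the 39 lie. The median log2 fold change of the 39 was -0.35, beside -0.00142 for all genes tested. The 39 belong to a list chosen with earlier results of these data known. Changes of at least 1.5-fold were seen in 14 of them (22.8% of all genes) and of at least 2-fold in 3 (9.60% of all genes): WNT2B, ROR1 and NKD1, the last on few counts. The groups did not overlap for 28 of the 39, beside 61.5% of all genes. With library totals in place of the trimmed mean, the median of all genes moved to 0.10 and the split was 19 lower and 10 higher, beside 23.1% lower and 34.2% higher for all genes.

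**Figure D1:**
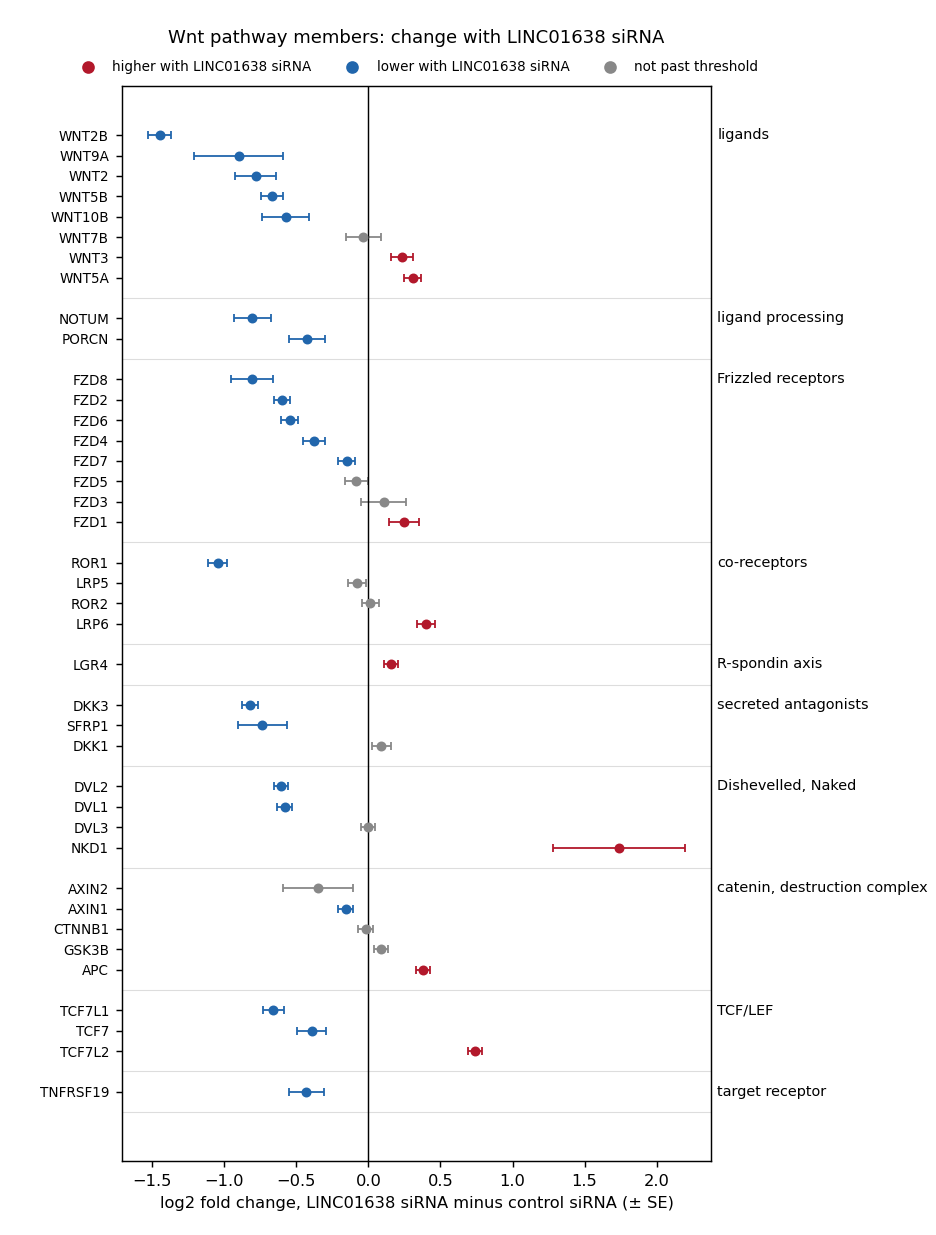
Log2 fold change (LINC01638 siRNA minus control siRNA, x axis) of the 39 tested Wnt genes, grouped by role, with bars for the standard error of the edgeR fit; colour gives the direction of genes past an adjusted p of 0.05 and grey those not past it. WNT2B (-1.45) and ROR1 (-1.05) lie farthest to the left, and TCF7L2 (0.74) and the low-count gene NKD1 (1.74) farthest to the right.

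The largest fall was that of a ligand, WNT2B, and the ligand genes split into 5 that fell, 2 that rose and 1 that did not pass. WNT2B (ENSG00000134245.18, GRCh38 chromosome 1, 112466541 to 112530165, plus strand) encodes a ligand best known for β-catenin signalling. In the order A, B, C it stood at 40.01, 48.4 and 47.3 CPM in control and at 16.9, 17.9 and 15.1 CPM in siRNA libraries, an order kept below. The highest siRNA library was thus well below the lowest control library, a 2.72-fold difference (log2 fold change -1.45, SE 0.0785, edgeR adjusted p = 4.33e-11). WNT5B, a relative of WNT5A, fell from 25.4, 28.99 and 25.5 CPM to 17.2, 17.8 and 15.3 CPM, or 1.59-fold (edgeR adjusted p = 2.50e-07). WNT5A (ENSG00000114251.15, chromosome 3, 55465715 to 55490539, minus strand), the main ligand of the ROR receptors, went the other way. Its values were 31.9, 32.6 and 30.2 CPM in control and 41.7, 38.1 and 37.4 CPM in siRNA libraries, with no overlap, and it rose 1.24-fold (log2 fold change 0.31, SE 0.0599, edgeR adjusted p = 0.0002).

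Among the less abundant ligand genes WNT3, a β-catenin ligand, rose from 11.3, 11.7 and 10.9 to 13.2, 13.1 and 13.3 CPM (1.17-fold, edgeR adjusted p = 0.0121). That call was lost without control replicate C (log2 fold change 0.21, edgeR adjusted p = 0.0549). WNT2 fell 1.72-fold, from 3.66, 3.78 and 3.997 to 2.47, 1.77 and 2.40 CPM, and WNT10B fell 1.49-fold although its control replicate C (2.39 CPM) lay below siRNA replicate C (2.41 CPM). WNT9A was near the limit of detection, with 41, 29 and 37 counts in control and 24, 25 and 14 counts in siRNA libraries. Its fall (log2 fold change -0.90, SE 0.309, edgeR adjusted p = 0.0183) was lost without control replicate A (-0.83, adjusted p = 0.0640) or siRNA replicate C (-0.63, adjusted p = 0.108). WNT7B stood at 3.51 ± 0.337 and 3.42 ± 0.0478 CPM (SD, n = 3 each) and did not pass.

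Both enzymes that act on the ligands themselves fell. NOTUM, a secreted carboxylesterase that removes the lipid from Wnt proteins and is itself a Wnt target, stood at 4.37, 4.85 and 4.30 CPM in control and 2.25, 2.66 and 2.81 CPM in siRNA libraries (1.75-fold lower, edgeR adjusted p = 1.96e-05). PORCN, the acyltransferase that adds that lipid, fell 1.34-fold, from 4.90 ± 0.735 to 3.64 ± 0.313 CPM (edgeR adjusted p = 0.00726). The PORCN call was lost without control replicate C (log2 fold change -0.33, edgeR adjusted p = 0.0589).

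**Figure D2:**
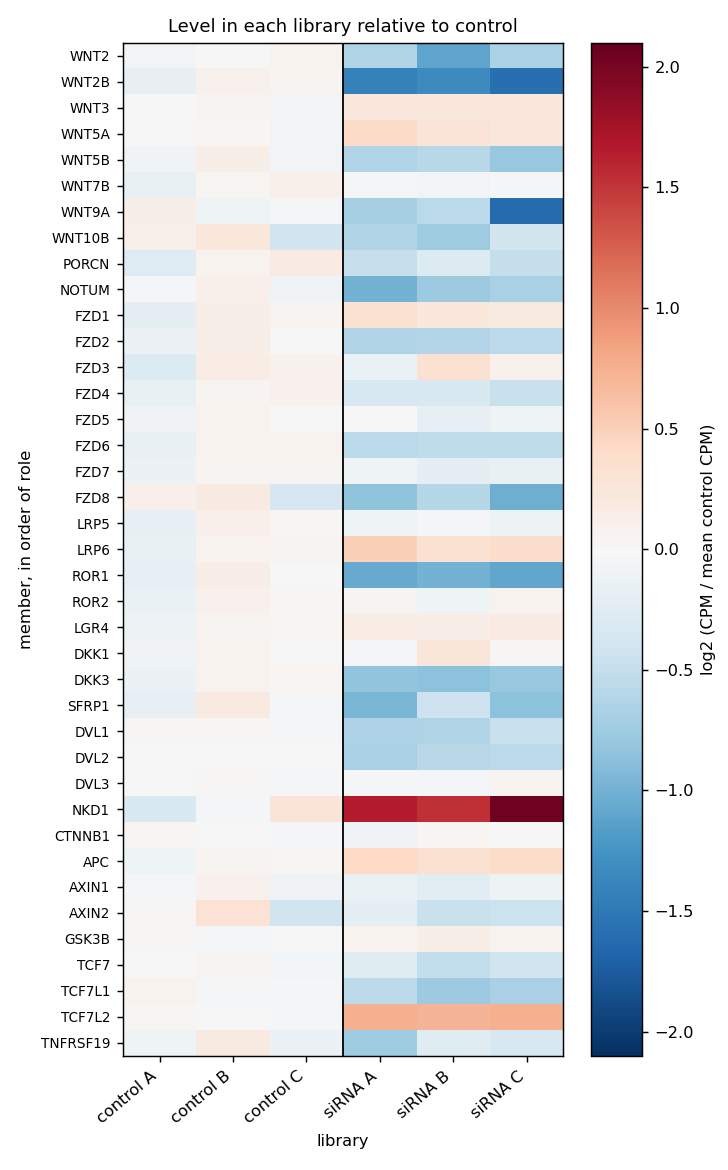
Level of each of the 39 tested Wnt genes in each library (columns) as log2 of its CPM over the mean control CPM of that gene; blue is lower and red higher than the control mean. The 3 siRNA columns share the dark blue of WNT2B and ROR1, the red of TCF7L2 and the deeper red of the low-count gene NKD1. The pale rows of DVL3, CTNNB1 and ROR2 lie close to the control mean.

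Of the 8 Frizzled genes, which encode the seven-pass receptors of Wnt ligands, 5 fell, 1 rose and 2 did not pass. Over all genes tested 29.6% were called lower and 26.3% higher. FZD2 (ENSG00000180340.7, chromosome 17, 44557459 to 44559570, plus strand) held the largest share of Frizzled RNA. It stood at 86.7, 102 and 93.3 CPM in control and 60.9, 61.1 and 64.1 CPM in siRNA libraries. The groups did not overlap, and FZD2 fell 1.51-fold (log2 fold change -0.60, SE 0.0566, edgeR adjusted p = 2.31e-08). FZD6 fell 1.46-fold, from 57.0, 66.7 and 66.7 to 42.7, 44.0 and 43.7 CPM, and FZD8, a receptor of low level here, fell 1.75-fold, from 5.33 ± 1.002 to 3.04 ± 0.451 CPM. FZD4, the receptor of norrin as well as Wnt ligands, fell 1.30-fold, from 21.8 ± 2.02 to 16.8 ± 0.990 CPM.

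The remaining Frizzled genes moved little. FZD7 stood at 46.9 ± 3.11 and 42.2 ± 1.61 CPM, with control replicate A (43.3 CPM) inside the range of the siRNA libraries, and its fall (log2 fold change -0.15, edgeR adjusted p = 0.0360) was lost under 5 other settings of scaling, genes kept or test. It was also lost without control replicate B (-0.12, adjusted p = 0.121), control replicate C (-0.12, adjusted p = 0.141), siRNA replicate B (-0.13, adjusted p = 0.0945) or siRNA replicate C (-0.15, adjusted p = 0.0864). FZD1 rose from 6.39 ± 0.773 to 7.57 ± 0.379 CPM (a log2 fold change of 0.25, edgeR adjusted p = 0.0454). Leaving out control replicate A lowered this value to 0.16 (adjusted p = 0.216), and the call was also lost without control replicate C (adjusted p = 0.0577) or siRNA replicate A, B or C (adjusted p = 0.148, 0.0579 and 0.0627). FZD5 (12.5 ± 0.623 and 11.8 ± 0.709 CPM) and FZD3 (2.55 ± 0.395 and 2.74 ± 0.443 CPM) did not pass.

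The co-receptors divided within each pair of relatives. ROR1 (ENSG00000185483.13, chromosome 1, 63774022 to 64181498, plus strand), a receptor tyrosine kinase-like receptor of WNT5A, stood at 46.7, 57.7 and 52.8 CPM in control and 25.3, 26.2 and 24.6 CPM in siRNA libraries. It fell 2.06-fold (log2 fold change -1.05, SE 0.0685, edgeR adjusted p = 1.94e-10), with no overlap between the groups. ROR2, the other ROR receptor, stood at 81.0, 94.3 and 91.6 CPM in control and 92.2, 83.4 and 93.9 CPM in siRNA libraries, with overlapping groups (log2 fold change 0.01, SE 0.0598, edgeR adjusted p = 0.853). LRP6 rose 1.32-fold, from 61.3, 71.8 and 70.9 to 96.3, 84.7 and 88.1 CPM (edgeR adjusted p = 2.26e-05). Its relative LRP5 stood at 51.6 ± 5.22 and 48.9 ± 1.02 CPM and did not pass (log2 fold change -0.08, edgeR adjusted p = 0.312), but passed as lower without control replicate A (-0.15, adjusted p = 0.0222).

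In the R-spondin arm, which controls how long Frizzled receptors stay at the surface, only LGR4 was abundant enough to test. LGR4, an R-spondin receptor, stood at 94.8, 105.3 and 104 CPM in control and at 113, 112 and 114 CPM in siRNA libraries. Every siRNA library was above every control library, a rise of 1.12-fold (log2 fold change 0.16, SE 0.0498, edgeR adjusted p = 0.0105). LGR5, a receptor of the same family and a stem cell marker, had 3, 4 and 3 counts in control and 8, 10 and 1 counts in siRNA libraries. RNF43, a ubiquitin ligase that removes Frizzled from the surface, had 4, 2 and 3 and then 11, 5 and 9 counts. Neither was tested.

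In control libraries the secreted antagonists were the most abundant of the 43 genes per length of transcript. With LINC01638 siRNA 2 of the 3 fell, and DKK3 (30.6 CPM per kb) was then level with DVL3 (30.8). SFRP1 (ENSG00000104332.12, chromosome 8, 41261958 to 41309497, minus strand), a soluble Frizzled-like protein that binds Wnt ligands, stood at 485, 621 and 530.3 CPM in control and 281, 402 and 300.3 CPM in siRNA libraries. Replicate B was the highest of its group on both sides, and the groups did not overlap. The fall was 1.66-fold with a wide error (log2 fold change -0.74, SE 0.170, edgeR adjusted p = 0.0140), and it missed the threshold when low-count genes were kept in the fit (adjusted p = 0.0658). DKK3, a member of the Dickkopf family whose part in Wnt signalling is less clear than that of DKK1, fell from 252, 288 and 282 to 155, 151 and 159 CPM (1.77-fold, SE of log2 fold change 0.0540, edgeR adjusted p = 1.56e-10). DKK1, which blocks LRP5 and LRP6 and is a Wnt target, stood at 285, 317 and 302 CPM in control and 298, 359 and 305 CPM in siRNA libraries. It did not pass (log2 fold change 0.09, edgeR adjusted p = 0.257), passed as higher with library totals (0.19, adjusted p = 0.0134), and stood at -0.00335 without siRNA replicate B.

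**Figure D3:**
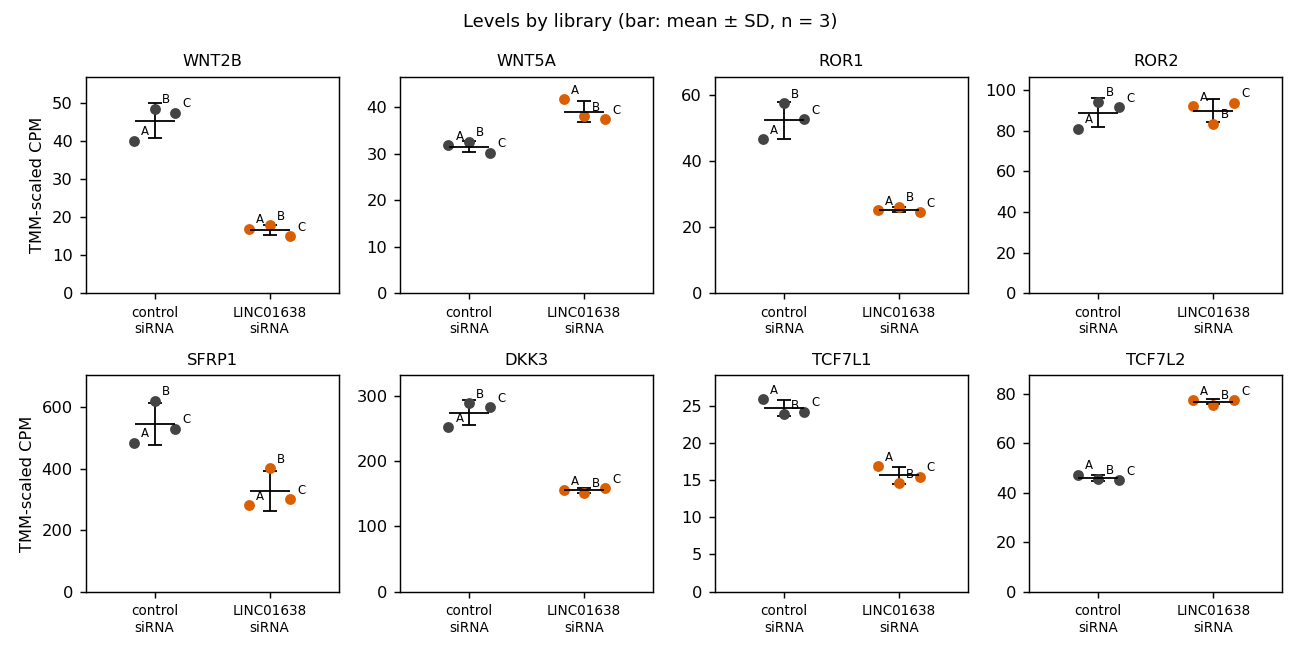
Level in CPM (y axis, from 0) of 8 Wnt genes in each library, labelled by replicate letter, with the mean and SD of each group of 3. WNT2B, ROR1, DKK3, SFRP1 and TCF7L1 are lower and WNT5A and TCF7L2 higher in every siRNA library than in every control library, while the ROR2 groups overlap.

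Dishevelled proteins relay the signal from Frizzled, and of the 3 genes 2 fell. DVL1 stood at 102, 101 and 96.9 CPM in control and 64.1, 64.3 and 72.2 CPM in siRNA libraries (1.495-fold lower, edgeR adjusted p = 1.65e-08). DVL2 stood at 116, 115 and 117 CPM and then 72.5, 77.9 and 78.9 CPM (1.52-fold lower, edgeR adjusted p = 2.34e-09). DVL3 gave 197, 200.4 and 192 CPM in control and 190.0, 193 and 205 CPM in siRNA libraries, with overlapping groups (log2 fold change -0.0036, SE 0.0482, edgeR adjusted p = 0.956). The sign of the DVL3 value changed with library totals (0.10, adjusted p = 0.0830) without passing. The Naked genes encode inhibitors of Dishevelled and were barely detected. NKD1, a Wnt target in many tissues, had 4, 4 and 6 counts in control and 16, 14 and 23 counts in siRNA libraries and rose (log2 fold change 1.74, SE 0.456, edgeR adjusted p = 0.00295). It entered the test only through its siRNA libraries, in which reads outside exons of their own strand were also more frequent (12.1% to 15.1%). Any link of those reads to the NKD1 counts was not tested. NKD2 had 0, 1 and 1 counts in control and 10, 9 and 16 counts in siRNA libraries and was not tested.

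β-catenin and the destruction complex that degrades it moved little: of the 5 genes 1 rose, 1 fell and 3 did not pass. CTNNB1, the β-catenin gene, stood at 377, 369.7 and 357 CPM in control and 349, 377 and 365 CPM in siRNA libraries (log2 fold change -0.02, SE 0.0507, edgeR adjusted p = 0.793), with a sign that turned to 0.08 with library totals. APC, the tumour suppressor scaffold of the complex, rose 1.30-fold, from 82.7, 91.6 and 90.2 to 118, 111 and 115 CPM (log2 fold change 0.38 with SE 0.0510, edgeR adjusted p = 2.59e-06). The APC groups did not overlap. The kinase gene GSK3B gave 138, 132 and 137 CPM in control and 142, 147 and 143 CPM in siRNA libraries. It did not pass (log2 fold change 0.09, edgeR adjusted p = 0.111) although the groups did not overlap, and it passed as higher with library totals (0.19), with protein-coding genes only (0.13) and with the stricter filter (0.13).

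The 2 axin genes, scaffolds of the same complex, differed in level more than in response. AXIN1 stood at 69.6 ± 4.02 and 62.3 ± 3.11 CPM (a log2 fold change of -0.16, edgeR adjusted p = 0.0198). That fall was lost with library totals (-0.06), with protein-coding genes only (-0.12), with the stricter filter (-0.12), and without control replicate B (-0.12, adjusted p = 0.112) or siRNA replicate B (-0.12, adjusted p = 0.0822). AXIN2, the most widely used readout of β-catenin signalling, had only 53, 53 and 39 counts in control and 47, 37 and 43 counts in siRNA libraries. Its log2 fold change of -0.35 (SE 0.243) did not pass (edgeR adjusted p = 0.230).

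The TCF/LEF factors, the DNA-binding partners of β-catenin, moved in opposite directions. TCF7L2 (ENSG00000148737.18, chromosome 10, 112950250 to 113167678, plus strand) stood at 47.3, 45.5 and 45.2 CPM in control and 77.4, 75.5 and 77.3 CPM in siRNA libraries. It rose 1.67-fold (log2 fold change 0.74, SE 0.0491, edgeR adjusted p = 1.81e-10), with a spread within each group far below the difference. TCF7L1 (ENSG00000152284.5, chromosome 2, 85133410 to 85310388, plus strand), known mainly as a repressor, fell 1.58-fold, from 25.8, 23.8 and 24.2 to 16.8, 14.6 and 15.4 CPM (log2 fold change -0.66 with SE 0.0708, edgeR adjusted p = 1.43e-07). LEF1 was nearly absent, with 1, 1 and 0 counts in control and 4, 10 and 7 counts in siRNA libraries, and was not tested.

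TCF7 fell 1.31-fold on its own strand, from 7.26, 7.65 and 7.07 to 6.12, 5.14 and 5.46 CPM (a log2 fold change of -0.39, edgeR adjusted p = 0.00205). In the column counted without regard to strand the sign turned (0.17, edgeR adjusted p = 0.231). Reads on the opposite strand of TCF7 made up 43.3% of its reads on both strands and went from 3.07 ± 0.593 to 6.56 ± 2.03 CPM. The 3′ end of TCF7 overlaps SKP1 on the minus strand (chromosome 5, 134148935 to 134151865 in GENCODE 29), and SKP1, a subunit of SCF ubiquitin ligases, was higher on its own strand (log2 fold change 0.72, edgeR adjusted p = 2.88e-07). Whether the reads on the opposite strand of TCF7 came from SKP1 was not tested. Because those reads enter the column without strand, the value by strand is the one given for TCF7.

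The promoters of TCF7L1 and TCF7L2 are shown because these related factors moved in opposite directions. The sequences run from 250 bases before to 50 bases after the annotated start on the plus strand, as RefSeq gives them on GRCh38.p14, with CG dinucleotides in capitals. TCF7L1 has 1 listed start (chr2:85133142-85133441), and of the 3 listed for TCF7L2 the most upstream is printed (chr10:112949997-112950296).
TCF7L1: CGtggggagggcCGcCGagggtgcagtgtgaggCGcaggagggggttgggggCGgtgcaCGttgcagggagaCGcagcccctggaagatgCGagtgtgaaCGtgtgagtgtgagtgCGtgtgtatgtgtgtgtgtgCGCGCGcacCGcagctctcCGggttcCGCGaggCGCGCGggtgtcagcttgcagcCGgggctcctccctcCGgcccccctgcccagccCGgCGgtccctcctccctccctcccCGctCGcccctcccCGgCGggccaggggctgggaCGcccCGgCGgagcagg
TCF7L2: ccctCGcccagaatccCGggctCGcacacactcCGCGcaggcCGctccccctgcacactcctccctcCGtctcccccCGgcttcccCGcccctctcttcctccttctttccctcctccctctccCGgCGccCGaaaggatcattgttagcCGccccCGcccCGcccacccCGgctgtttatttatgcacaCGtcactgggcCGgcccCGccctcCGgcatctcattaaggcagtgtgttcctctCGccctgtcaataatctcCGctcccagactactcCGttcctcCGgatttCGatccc
The TCF7L1 window holds 31 CG dinucleotides and 74.3% G or C, and the printed TCF7L2 window 25 and 65.7%. The TCF7L2 windows not printed hold 7 and 5 CG dinucleotides and 42.7% and 48.7% G or C. Across 40 windows listed for 30 of the 43 genes the median was 26 CG dinucleotides. Across 35116 windows of all genes, taken whether or not the gene was detected here, it was 14. The TCF/LEF core CTTTGAT, searched on both strands, was in none of the 40 windows and in 2.62% of all windows, which says only that these letters are not in these windows.

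TNFRSF19 (TROY), a receptor gene induced by β-catenin signalling in several tissues, fell 1.35-fold. It stood at 8.13, 9.94 and 8.03 CPM in control and 5.20, 7.26 and 6.85 CPM in siRNA libraries, without overlap (log2 fold change -0.43, SE 0.119, edgeR adjusted p = 0.00507).

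Levels can be compared between genes only per length, here as CPM per kb of annotated exon sequence. On that scale DKK1 (137 ± 7.31 in control libraries, SD, n = 3) and SFRP1 (115 ± 14.6) came first, then DKK3 (54.2 ± 3.84) and FZD2 (44.5 ± 3.61). DVL3 (30.8 ± 0.695) and CTNNB1 (30.8 ± 0.850) followed and did not differ beyond their spread, but with the longest annotated transcript as length CTNNB1 came to 75.3 and DVL3 to 36.8. The most abundant of the 8 ligand genes was WNT5B (6.18 ± 0.477), ahead of WNT5A (4.27 ± 0.162) and WNT2B (3.60 ± 0.364), while WNT4, described below among further pathway genes, stood higher at 14.2 ± 0.470. At the other end, LGR5, RNF43, NKD1, NKD2 and LEF1 were each at or below 0.0130 in control libraries, and AXIN2 stood at 0.188 ± 0.0458.

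Because relatives moved unequally, the makeup of several families differed between the groups. WNT5A went from 21.8% ± 0.852 to 33.8% ± 0.968 of the summed level per kb of the 8 ligands (SD, n = 3 each), while WNT5B went from 31.6% ± 0.702 to 24.9% ± 1.47 and WNT2B from 18.4% ± 1.497 to 8.47% ± 0.583. With the longest transcript as length WNT5B (33.8%) still exceeded WNT5A (29.4%) in siRNA libraries, so which of the 8 led there depends on the length used. TCF7L2 went from 52.0% ± 0.343 to 73.5% ± 1.21 of the TCF/LEF sum and TCF7L1 from 42.4% to 22.8%. ROR2 went from 66.2% ± 0.766 to 80.3% ± 1.51 of the ROR pair, and DVL3 from 39.1% ± 0.350 to 49.2% ± 0.362 of the Dishevelled genes. With the longest transcript as length DVL2 (36.3%) exceeded DVL3 (34.7%) in control libraries, and DVL3 (44.4%) exceeded DVL2 (30.6%) in siRNA libraries. FZD2 remained above 50% of Frizzled RNA in both groups (56.0% ± 0.900 and 51.4% ± 1.009), and FZD6 and FZD7 made up most of the rest. The summed Frizzled level was 79.5 ± 6.04 CPM per kb in control and 57.1 ± 0.611 in siRNA libraries, and that of the 3 antagonists 305 ± 25.3 and 245 ± 28.0. These shares are descriptions without a test.

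**Figure D4:**
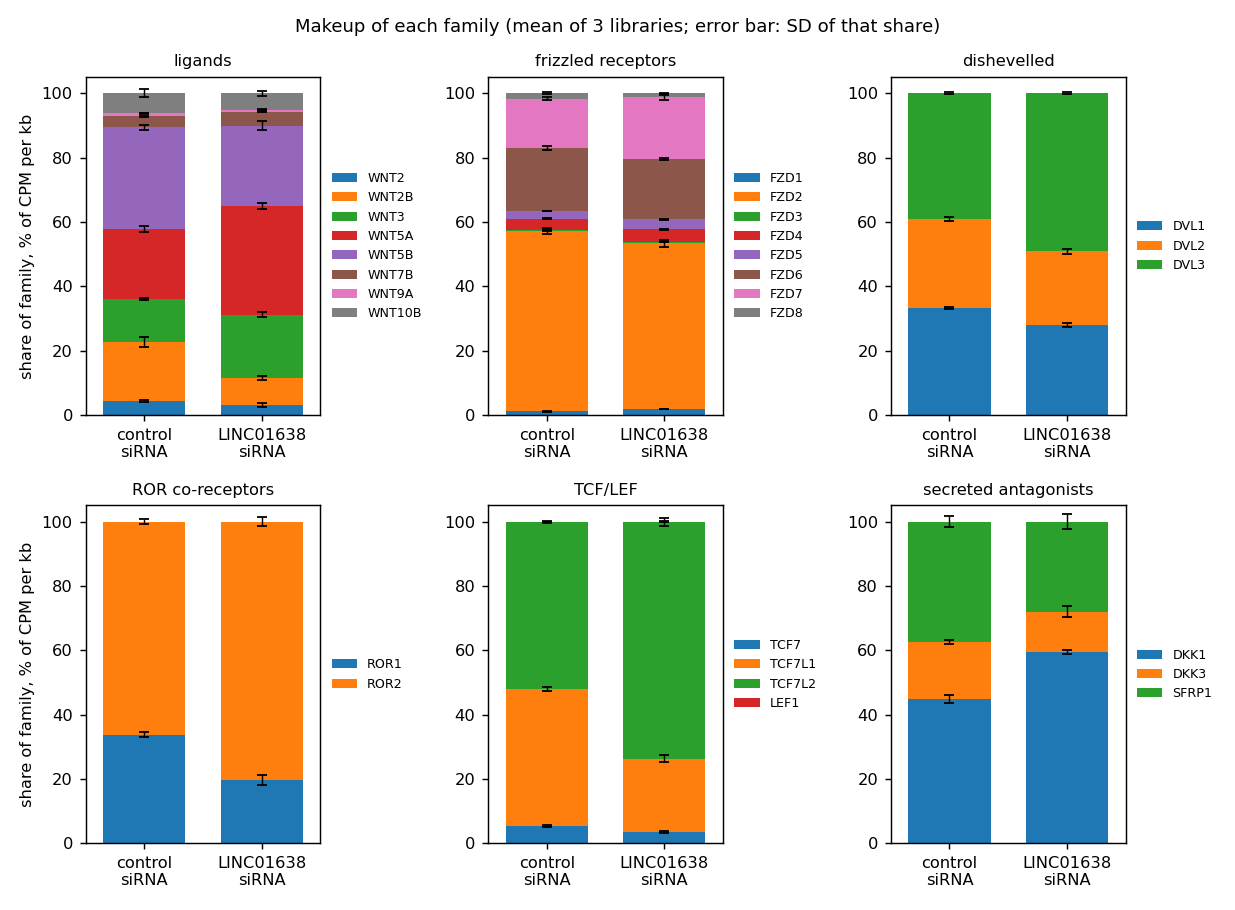
Share of each gene (y axis, percent of CPM per kb of exon) in the summed level of its family in control and LINC01638 siRNA libraries; each segment is the mean of 3 libraries and its bar the SD of that share. TCF7L2 grows from 52.0% to 73.5% of the TCF/LEF genes and WNT5A from 21.8% to 33.8% of the ligands.

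Of 86 further Wnt pathway genes from general knowledge, 62 were tested, of which 32 fell, 13 rose and 17 did not pass, with a median log2 fold change of -0.24. The share past the threshold, 72.6%, stood beside 56.0% of all genes and 66.0% of genes averaging 1 CPM or more. Among ligands WNT4, a ligand of the developing female reproductive tract, fell 2.51-fold, from 63.2, 66.9 and 63.2 to 24.4, 30.2 and 22.5 CPM (edgeR adjusted p = 8.46e-09). WNT6 rose from 0.852 ± 0.262 to 2.18 ± 0.439 CPM. WLS, the carrier that takes lipid-modified Wnt proteins to the cell surface, rose 1.76-fold, from 59.7, 71.9 and 69.3 to 120.3, 112 and 120.3 CPM (edgeR adjusted p = 1.79e-09). PORCN, whose enzyme adds the lipid, and WLS thus moved in opposite directions. The PORCN call was lost without control replicate C (edgeR adjusted p = 0.0589). Among receptors FZD9 rose (log2 fold change 0.91, at 1.36 CPM in siRNA libraries) and ZNRF3, the ubiquitin ligase related to RNF43, fell (-0.24), although not with library totals (-0.13, edgeR adjusted p = 0.118). RYK (0.15) and PTK7 (-0.18; -0.07 with library totals, not past) passed narrowly and lost their calls without control replicate B (edgeR adjusted p = 0.0835 and 0.0962) or siRNA replicate B (0.0695 and 0.103), RYK also without siRNA replicate C (0.145) and PTK7 without control replicate C (0.0751).

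Of 7 further antagonists tested, 4 fell and none rose, beside 29.6% lower and 26.3% higher over all genes tested. KREMEN1, a receptor that works with DKK1 to remove LRP5 and LRP6, fell 2.25-fold, from 36.1 ± 2.33 to 16.1 ± 0.525 CPM (edgeR adjusted p = 1.99e-11). The Wnt-cleaving proteases TRABD2A and TRABD2B (Tiki) fell 2.502-fold and 3.41-fold, TRABD2B at only 1.63 CPM in control libraries. In the wider destruction complex 8 of 13 genes fell and 4 rose. TNKS2, a tankyrase that marks axin for degradation, fell 1.86-fold, from 143 ± 4.70 to 76.8 ± 4.78 CPM, and the kinase gene CSNK1D 1.39-fold. The F-box genes that recognise phosphorylated β-catenin moved apart, BTRC falling 1.38-fold and FBXW11 rising 1.33-fold. The kinase genes CSNK1E (log2 fold change 0.21) and CSNK1A1 (0.15) rose.

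**Figure D5:**
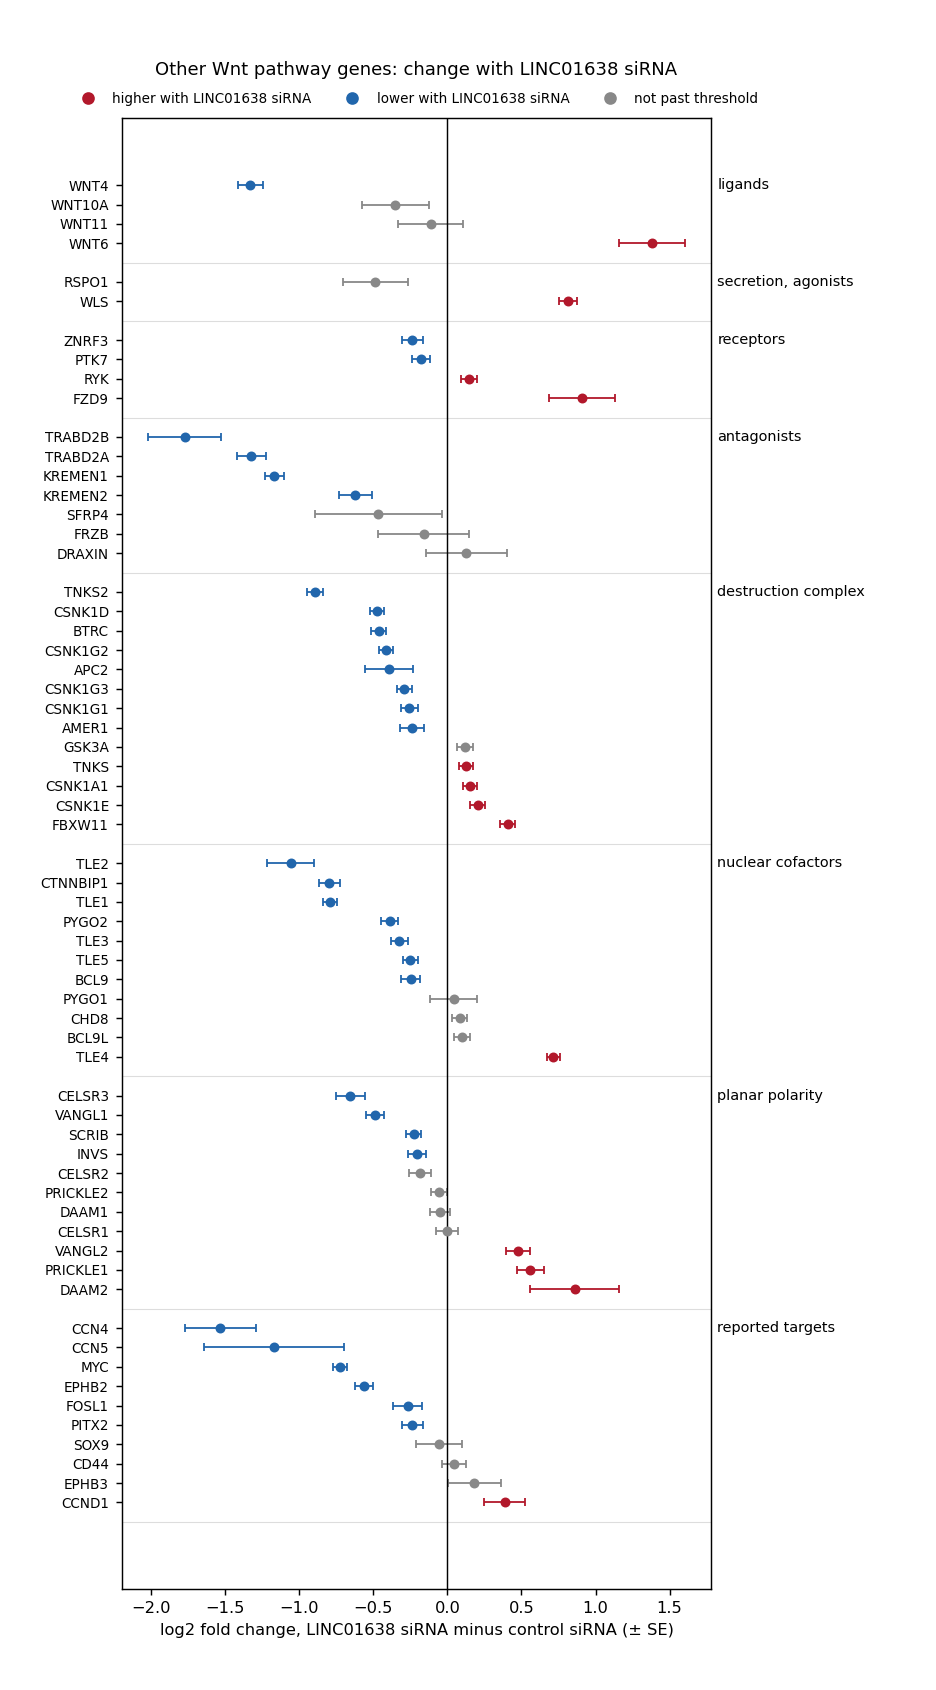
Log2 fold change (LINC01638 siRNA minus control siRNA, x axis) of the 62 further Wnt pathway genes tested, by role, with bars for the standard error and colour for direction past an edgeR adjusted p of 0.05. TRABD2B (-1.77), CCN4 (-1.53) and WNT4 (-1.33) lie farthest to the left and WNT6 (1.38) farthest to the right.

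Nuclear cofactors fell in 7 of 11 cases and rose in 1, beside 29.6% lower and 26.3% higher over all genes tested. TLE1, a Groucho corepressor that binds TCF proteins, fell 1.73-fold, from 127, 127 and 125 to 71.2, 75.9 and 71.4 CPM, and TLE2 2.08-fold. TLE4, of the same family, rose 1.64-fold, from 106, 104.7 and 102 to 169, 175 and 169 CPM (edgeR adjusted p = 1.13e-10). CTNNBIP1, an inhibitor of β-catenin binding to TCF, fell 1.74-fold. Planar polarity genes were mixed, with 4 of 11 lower and 3 higher: VANGL1 fell (log2 fold change -0.49) and VANGL2 rose (0.48), CELSR3 (-0.65) and SCRIB (-0.23) fell and PRICKLE1 rose (0.56).

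Of 13 genes reported elsewhere as Wnt targets, 10 were tested, 6 fell and 1 rose. Over all genes tested 29.6% were called lower and 26.3% higher. MYC fell 1.65-fold, the Eph receptor gene EPHB2 1.48-fold (from 115 ± 11.4 to 77.5 ± 1.67 CPM) and CCN4 (WISP1) 2.89-fold at 1.69 CPM in control libraries. CCND1 (cyclin D1) rose, but its siRNA libraries stood at 31.7, 43.8 and 29.9 CPM, and without siRNA replicate B its log2 fold change went from 0.39 to 0.19. The CCND1 call (edgeR adjusted p = 0.0434) was lost without control replicate A, B or C (adjusted p = 0.166, 0.158 and 0.0632). SP5, MMP7 and ASCL2, targets used as markers of β-catenin signalling in other tissues, were too low to test. Most of the targets are also regulated by other pathways.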

How the data were processed

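Total RNA of 6 libraries of 12Z cells was analysed, 3 per siRNA. The counts, as deposited by the authors, are whole numbers of reads per gene without normalization; per the submitters' processing notes STAR 2.7.10b, R 4.2.1 and GRCh38 (hg38) were used. The annotation release is not given in the sources used here. Every table has 0 in its row for multi-mapping reads, so how reads shared by close relatives (the Frizzled genes, for example) were treated is not known from the files. The reverse-strand column was used (directional kit). Rows that name no gene were left out: 11.9% to 13.1% of fragments were unmapped, and 7.02% to 7.76% of mapped reads lay over several genes. Symbols matched exactly for 61918 identifiers and without the version for 754 more; positions and exon lengths come from GENCODE 29 on GRCh38, possibly another release than the authors counted with.

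Counts were filtered (edgeR filterByExpr, minimum count 10, total 15; 18569 genes kept), scaled by TMM and tested with edgeR 4.0.16 (quasi-likelihood, robust, group only) in R 4.3.3; DESeq2 1.42.0 and limma 3.58.1 gave alternatives. SE is the absolute log2 fold change over the square root of F. The fit was tested on simulated data. The common biological coefficient of variation was 5.62%. The 43 genes and the other lists were chosen with earlier results of these data known. Named are all 43, LINC01638 and, of the further Wnt genes, up to 3 higher and 3 lower per role past the threshold, of largest change, with a mean of at least 1 CPM. Markers named and SKP1 were chosen after their values were seen.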

Additional observations from a re-analysis of the deposited data

Results flagged for a closer look

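Reads on the opposite strand of a gene were not used in the comparison above. Of the 43 Wnt genes 21 had a mean of at least 10 such reads, and for 3 of them every LINC01638 siRNA library was above every control library, beside 23.4% of the 11410 genes with as many such reads. For TCF7 the level on the opposite strand was 2.48, 3.66 and 3.07 CPM in the control libraries A to C and 8.90, 5.37 and 5.41 CPM in the siRNA libraries A to C, with a mean of 6.56 CPM in the latter. For DVL2 the means were 0.282 and 0.576 CPM, and for AXIN1 0.136 and 0.282 CPM. The last 2 rest on 9 to 36 and on 3 to 18 reads per library. For 4 of the 21 genes every siRNA library was below every control library, beside 17.8% of all such genes. No test was made, since the genes were picked by this order of their libraries.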

How the results depend on the processing

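Of the 29 genes past the threshold, 28 kept their direction and 20 of them also their side of the threshold in each of up to 15 alternatives in which they were tested. Of the 10 not past it, 8 turned sign in at least 1 alternative (WNT7B, FZD3, FZD5, LRP5, ROR2, DKK1, DVL3 and CTNNB1), never past the threshold with the turned sign, and LRP5, DKK1 and GSK3B passed in at least 1. The number of the 43 genes higher was 6 to 10 and lower 18 to 21, with 7 to 9 and 19 to 21 when 1 library was left out. The further Wnt genes gave 9 to 16 higher and 23 to 33 lower, with 10 to 12 and 28 to 32 when 1 library was left out. Over all genes, leaving out 1 library gave 4372 to 4681 higher and 5049 to 5409 lower. The sign of TCF7 turned in the column without strand (0.17). With library totals WNT7B (0.07), FZD5 (0.02), LRP5 (0.02), DVL3 (0.10) and CTNNB1 (0.08) turned sign. FZD1, LGR4, RYK, CSNK1A1 and CCND1 lost their calls without strand (edgeR adjusted p = 0.0947, 0.0669, 0.0953, 0.0720 and 0.117), and FZD1, SFRP1 and RYK without a filter (0.0746, 0.0658 and 0.0736). The stricter filter left WNT9A, NKD1 and AXIN2 untested; without a filter NKD2 and LEF1 passed as higher (edgeR adjusted p = 1.65e-04 and 0.0152) and RNF43 and LGR5 did not. Same-lettered libraries did not deviate together (correlations -0.08, -0.02 and -0.02 for A, B and C), and with the replicate letter as a block 7 of the 43 genes were higher and 20 lower, FZD1 and FZD7 losing their calls (adjusted p = 0.0577 and 0.0652); 12 further Wnt genes were higher and 31 lower, and over all genes 4676 and 5286. Levels per kb depend on 1 length per gene.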

Other observations

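FZD4 showed the reverse of TCF7 on its opposite strand. Reads there made up 36.1% of its reads on both strands and went from 14.4, 14.8 and 17.0 CPM in control to 6.28, 7.01 and 6.62 CPM in siRNA libraries. FZD4 overlaps PRSS23, a serine protease gene on the plus strand (chromosome 11, 86945679 to 86952910 in GENCODE 29), and PRSS23 was lower on its own strand (log2 fold change -0.55, edgeR adjusted p = 7.90e-08). FZD4 itself was lower with either column, at -0.38 on its own strand and -0.43 without regard to strand. Whether the reads on the opposite strand of FZD4 came from PRSS23 was not tested. These genes were chosen after their values were seen.

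LINC01638 siRNA replicate B was the highest of its group for SFRP1 (402 CPM beside 281 and 300.3), DKK1 (359 beside 298 and 305), CCND1 (43.8 beside 31.7 and 29.9) and FOSL1 (50.4 beside 39.5 and 37.2). These were also chosen after their values were seen, and a group of 3 was not tested for outlying libraries.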
